A study of Mus musculus with 10 samples.

Results

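Cd14 is the surface co-receptor that passes bacterial lipopolysaccharide to toll-like receptor 4. It was described here together with 9 other genes of lipopolysaccharide sensing and the acute phase, Tlr2, Tlr4, Ly96, Myd88, Lbp, Lcn2, Saa3, Hp and Orm1. They are 10 of the 30319 gene symbols measured, they were matched by symbol, and all 10 reached at least 1 TPM (a transcript's length-corrected share of its library) in at least 2 libraries. The set was chosen by measured values, since the level of Cd14 in null pads on the low-fat diet had drawn attention to it, so the genotype difference within that diet is given as a description, without a test.

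The tissue was the subcutaneous mammary fat pad of the inguinal region, taken from female FVB mice and sequenced from total RNA with a stranded kit that removes ribosomal RNA. The mice were FAP-/- (null for fibroblast activation protein, a membrane protease of activated fibroblasts) or wild-type. Each genotype was fed a high-fat diet (60% of calories from fat) or an ingredient-matched low-fat diet (10%) between weeks 12 and 30 of age. The groups were Null_HFD (n = 3), WT_HFD (n = 2), Null_LFD (n = 3) and WT_LFD (n = 2), 10 libraries that the series calls biological replicates. The labels restrict the null genotype to no tissue or cell type, and do not say which part of the gene is missing.

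Lipopolysaccharide is carried by lipopolysaccharide-binding protein (LBP) to CD14, which hands it to MD-2 (the product of Ly96) bound to toll-like receptor 4, and the adaptor MYD88 starts the signal that frees NF-kappaB. Toll-like receptor 2 senses bacterial lipoproteins and also uses MYD88. The acute phase is the release of plasma proteins in response to such signals, mostly by the liver, but lipocalin 2, serum amyloid A3 and haptoglobin are also made by fat and epithelium. CD14 is best known from monocytes and macrophages, and in the mouse mammary gland it also marks luminal progenitor cells, as KIT does. The pad holds both cell types, and the question asked of these libraries was which of them Cd14 goes with. In bulk tissue, fewer cells of a type and less RNA per cell cannot be told apart.

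Fap, the targeted gene, measured 26.7, 38.4 and 22.3 TPM in Null_HFD and 68.8 and 37.7 TPM in WT_HFD, and 18.4, 22.4 and 18.3 TPM in Null_LFD and 45.4 and 39.2 TPM in WT_LFD. It was lower in every low-fat null pad than in either low-fat wild-type pad, and the library labelled Null_HFD 2 lay above the one labelled WT_HFD 2. A level over the whole gene does not check a deletion whose extent is not given. Between 14574 and 15700 genes reached 1 TPM per library, and TPM keeps no read numbers, so depth is unknown. Fat cell markers were present in every library, since the summed TPM of the 16 genes of the adipocyte list lay between 18721 and 53445. WT_HFD 2 and Null_HFD 3 stood apart by their lymph node genes (lymphocyte and lymphoid stroma markers), whose mean log2 level, centred on all 10 libraries, was 3.58 in WT_HFD 2 and 4.98 in Null_HFD 3, while the other 8 had values from -1.39 to -0.78. The centred level of skeletal muscle genes was low in both, at -3.12 and -4.08, against -0.16 to 2.28 in the other 8. The high-fat genotype differences of the 10 genes are given with and without them. Without them, WT_HFD 1 was the only wild-type high-fat library, so those values rest on it alone for that group. Leaving out any single wild-type library likewise left 1 library in its group.

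Cd14 (chromosome 18, 36725067 to 36726798, minus strand, GRCm38) measured 33.9, 32.3 and 19.2 TPM in Null_HFD, 43.0 and 44.7 TPM in WT_HFD, 90.4, 108 and 33.4 TPM in Null_LFD, and 18.6 and 15.6 TPM in WT_LFD. The 2 highest libraries were Null_LFD 1 and 2, while Null_LFD 3 lay with the high-fat null pads. Low-fat null pads were all above low-fat wild-type pads, and high-fat null pads were all below high-fat wild-type pads. The group means were 28.5 ± 8.05 TPM in Null_HFD (SD, n = 3), 43.8 ± 1.21 TPM in WT_HFD (SD, n = 2), 77.1 ± 38.9 TPM in Null_LFD (SD, n = 3) and 17.1 ± 2.12 TPM in WT_LFD (SD, n = 2). In order of these means, the neighbours Null_LFD and WT_HFD overlapped and so did no other neighbours.

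Of the comparisons, genotype within the high-fat diet shares no library with the one that drew attention to Cd14, so it carries the tests. Only its differences are free of the low-fat libraries. The spread behind each SE and p was estimated over all 10 libraries, so the tests are not fully independent of that choice. There the null minus wild-type difference of Cd14 was -0.65 on the log2(TPM + 1) scale (SE 0.45), which did not pass (limma with Benjamini-Hochberg adjustment over 16932 genes, adjusted p = 1). None of the 10 genes passed in it, where 0.0118% of all genes tested did. The Cd14 difference was -0.37 without WT_HFD 2 and Null_HFD 3. Within the low-fat diet Cd14 differed by 1.96 (SE 0.45, null minus wild type), which was between 1.64 and 2.47 when 1 library at a time was left out. All genes tested had a median difference of 0.146 in that comparison, and median-of-ratios scaling of the TPM values gave 1.81 for Cd14.

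**Figure D1:**
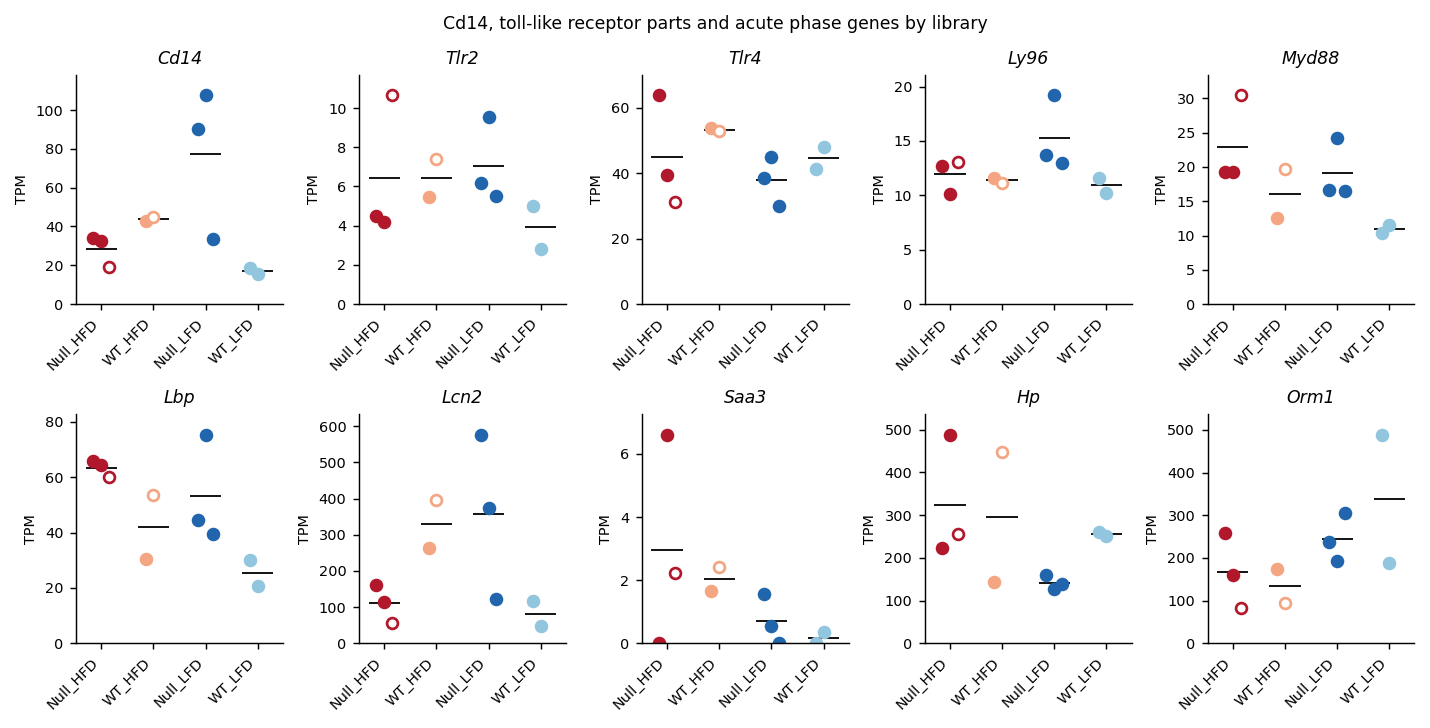
TPM of the 10 genes in each library, by group, with 1 point per library and a bar at the group mean. Open points are WT_HFD 2 and Null_HFD 3. Cd14 is highest in Null_LFD 2 and Lcn2 in Null_LFD 1, and Tlr2 and Myd88 are highest in Null_HFD 3.

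Lbp, which carries lipopolysaccharide to CD14, measured 65.8, 64.5 and 60.2 TPM in Null_HFD, 30.5 and 53.5 TPM in WT_HFD, 44.6, 75.4 and 39.6 TPM in Null_LFD, and 30.2 and 20.7 TPM in WT_LFD. It was higher in every null pad than in every wild-type pad of the same diet. Of all genes tested, 7.73% were so on the high-fat diet and 19.1% on the low-fat diet. The share that were so in both diets was not computed, so nothing is read from this. The high-fat difference was 0.64 (SE 0.33, limma adjusted p = 1), and the low-fat difference was 1.00 (SE 0.33). The high-fat value rested on 2 wild-type pads that differed, at 0.242 without WT_HFD 1 and 1.03 without WT_HFD 2, and it was 1.07 without WT_HFD 2 and Null_HFD 3. The lowest 2 of the 10 values were those of the low-fat wild-type pads. Lbp lies on chromosome 2 (158306493 to 158332852), as do Lcn2 and the targeted gene Fap (62500943 to 62574075). The part of this shared chromosome in the genotype differences of Lbp and Lcn2 was not tested.

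Tlr4, the receptor of lipopolysaccharide, measured 63.8, 39.5 and 31.3 TPM in Null_HFD, 53.7 and 52.7 TPM in WT_HFD, 38.4, 45.04 and 30.0 TPM in Null_LFD, and 41.3 and 48.0 TPM in WT_LFD. Null and wild-type pads overlapped within both diets, and the highest library was only 2.12 times the lowest, against 6.91 times for Cd14. Ly96, whose product MD-2 holds the lipopolysaccharide, was as even, at 12.7, 10.1 and 13.1 TPM in Null_HFD, 11.6 and 11.1 TPM in WT_HFD, 13.7, 19.2 and 13.0 TPM in Null_LFD, and 11.6 and 10.2 TPM in WT_LFD. Its highest library was Null_LFD 2, also the highest for Cd14, and its highest was 1.89 times its lowest. The high-fat differences were -0.30 for Tlr4 (SE 0.29) and 0.06 for Ly96 (SE 0.24), and both had a limma adjusted p of 1. Without WT_HFD 2 and Null_HFD 3 they were -0.09 for Tlr4 and -0.03 for Ly96, the Ly96 value having turned its sign.

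Tlr2 measured 4.47, 4.20 and 10.6 TPM in Null_HFD, 5.48 and 7.40 TPM in WT_HFD, 6.16, 9.53 and 5.52 TPM in Null_LFD, and 5.01 and 2.82 TPM in WT_LFD. The highest value was in Null_HFD 3, 1 of the 2 libraries rich in lymph node genes, and the next was in Null_LFD 2. Myd88, the shared adaptor, measured 19.2, 19.2 and 30.4 TPM in Null_HFD, 12.6 and 19.6 TPM in WT_HFD, 16.7, 24.2 and 16.5 TPM in Null_LFD, and 10.3 and 11.6 TPM in WT_LFD. Both genes were highest in Null_HFD 3, and in both the low-fat null pads lay above the low-fat wild-type pads without overlap. The high-fat differences were -0.09 for Tlr2 (SE 0.42) and 0.48 for Myd88 (SE 0.30), and both had a limma adjusted p of 1. Without WT_HFD 2 and Null_HFD 3 they were -0.28 for Tlr2 and 0.57 for Myd88. Leaving out 1 library moved the Myd88 value to 0.183 without WT_HFD 1 and 0.787 without WT_HFD 2. The part of the lymph node genes of Null_HFD 3 in these values was not tested.

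Lcn2 (chromosome 2, 32384633 to 32388252, minus strand, GRCm38), a secreted protein that withholds iron from bacteria, measured 161, 114 and 55.1 TPM in Null_HFD, 262 and 395 TPM in WT_HFD, 577, 373 and 123 TPM in Null_LFD, and 116 and 47.1 TPM in WT_LFD. As with Cd14, the low-fat null pads were all above, and the high-fat null pads all below, the wild-type pads of their diet. The range was wide, with the highest library 12.3 times the lowest. The difference was -1.67 within the high-fat diet (SE 0.68, limma adjusted p = 1) and 2.00 within the low-fat diet (SE 0.68). The high-fat difference was -0.95 without WT_HFD 2 and Null_HFD 3. Leaving out 1 library at a time gave -2.01 to -1.24 within the high-fat diet and 1.36 to 2.64 within the low-fat diet.

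Hp, haptoglobin, which binds free haemoglobin and is made by fat cells, measured 224, 489 and 256 TPM in Null_HFD, 144 and 447 TPM in WT_HFD, 159, 128 and 138 TPM in Null_LFD, and 262 and 252 TPM in WT_LFD. The low-fat null pads were all below the low-fat wild-type pads, opposite to Cd14 and Lcn2, while the high-fat groups overlapped. Orm1, orosomucoid, a plasma carrier protein, measured 258, 160.0 and 82.2 TPM in Null_HFD, 174 and 94.5 TPM in WT_HFD, 236, 193 and 306 TPM in Null_LFD, and 489 and 187 TPM in WT_LFD. Its groups overlapped between genotypes in both diets. The high-fat differences were 0.26 for Hp (SE 0.46) and 0.23 for Orm1 (SE 0.53), and both had a limma adjusted p of 1. They were 1.19 for Hp and 0.23 for Orm1 without WT_HFD 2 and Null_HFD 3. Orm2 (2.72 to 15.4 TPM) and Orm3 (3.14 to 28.4 TPM) lie beside Orm1 on chromosome 4 and are close copies of it, so the division of reads among them is uncertain.

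Saa3, a serum amyloid A made outside the liver, was near the limit of detection, at 0, 6.61 and 2.23 TPM in Null_HFD, 1.67 and 2.40 TPM in WT_HFD, 1.55, 0.54 and 0 TPM in Null_LFD, and 0 and 0.355 TPM in WT_LFD. The libraries of Null_HFD differed more among themselves than the group means did, and 3 of the 10 listed it at 0. Its high-fat difference was -0.05 (SE 0.75, limma adjusted p = 1), and 0.05 without WT_HFD 2 and Null_HFD 3. Reads of Saa1, Saa2 and Saa3 can be divided uncertainly, since these neighbours on chromosome 7 are similar. Saa1, the circulating form, measured 5.82, 3.20 and 1.05 TPM in Null_HFD, 3.51 and 18.6 TPM in WT_HFD, 31.7, 11.1 and 0 TPM in Null_LFD, and was listed at 0 in both WT_LFD libraries.

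**Figure D2:**
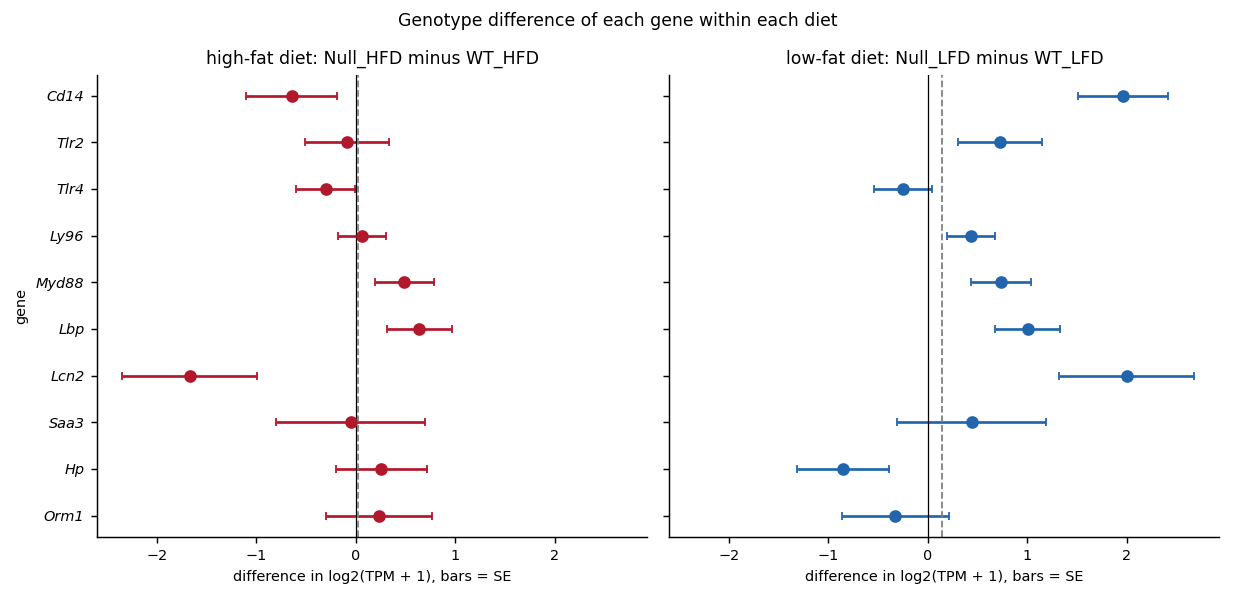
Null minus wild type in log2(TPM + 1) for the 10 genes, within the high-fat diet (left) and the low-fat diet (right), with bars of 1 SE. The dashed line is the median of all genes tested. Cd14 and Lcn2 lie at -0.65 and -1.67 on the high-fat diet and at 1.96 and 2.00 on the low-fat diet, and Lbp lies above 0 in both.

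Counted over the set, null pads were higher without overlap on the low-fat diet for 6 of the 10 genes (Cd14, Tlr2, Ly96, Myd88, Lbp and Lcn2), and lower for Hp. Of all genes tested, 19.1% were higher and 6.3% lower in this way, and since this comparison helped to choose the genes, nothing is read from it. On the high-fat diet Lbp was higher and Cd14 and Lcn2 lower without overlap, beside 7.73% of all genes higher and 7.78% lower. Cd14 and Lcn2 were the 2 of the 10 that lay lower in null on the high-fat diet and higher on the low-fat diet, both without overlap, as did 1.43% of all genes. The median of the 10 differences was 0.00 there (5 higher, 5 lower), beside 0.016 for all genes. In this comparison limma called 2 genes of 16932, neither in the set, and 647 had an unadjusted p under 0.05.

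Between the diets, 8 of the 10 genes were higher on the high-fat diet in wild-type pads (median 0.56, against 0.20 for all genes). In null pads they did not move together, with 5 higher and 5 lower (median 0.00, against 0.04 for all genes). In wild-type pads the high-fat libraries lay above the low-fat ones without overlap for 7 genes (Cd14, Tlr2, Tlr4, Myd88, Lbp, Lcn2 and Saa3), and below for Orm1, beside 33.7% of all genes above and 11.5% below. In null pads Hp alone of the 10 lay above without overlap, and none lay below, beside 6.6% above and 4.49% below of all genes. The high-fat minus low-fat difference of Cd14 was 1.31 in wild-type pads (SE 0.50) and -1.29 in null pads (SE 0.40). That of Lcn2 was 2.11 in wild-type pads (SE 0.74) and -1.56 in null pads (SE 0.61), and that of Hp was 1.099 in null pads (SE 0.41). Without WT_HFD 2 and Null_HFD 3 these were 1.29 and -1.04 for Cd14, 1.81 and -1.13 for Lcn2, and 1.22 for Hp. These comparisons use the low-fat libraries that the choice of genes rested on, and are given without tests of the 10. Over all genes limma called 0 in wild type (950 with an unadjusted p under 0.05) and 1 in null (1129 with an unadjusted p under 0.05, 0.00591% called).

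The rest of the toll-like receptor pathway gave no call. All 36 listed genes were tested, receptors, adaptors, kinases and NF-kappaB subunits, and 0 passed limma in any of the 7 comparisons, where at most 0.0118% of all genes did. High-fat pads were higher for 31 of 36 genes in null (median 0.30, against 0.04 for all genes) and for 33 of 36 in wild type (median 0.46, against 0.20 for all genes). Without WT_HFD 2 and Null_HFD 3, these became 22 of 36 genes in null (median 0.05, against 0.02 for all genes) and 31 of 36 in wild type (median 0.20, against 0.10 for all genes). The wild-type value then rests on WT_HFD 1 alone for the high-fat side. The mean level of the list, centred on the 10 libraries, was -0.15, 0.05 and 0.84 in Null_HFD, -0.11 and 0.51 in WT_HFD, -0.23, 0.01 and -0.22 in Null_LFD, and -0.31 and -0.37 in WT_LFD. The 2 libraries rich in lymph node genes were the highest, and the other high-fat null pads overlapped the low-fat null pads. Irak2, a kinase recruited by MYD88, measured 39.4, 51.4 and 32.1 TPM in Null_HFD and 24.4, 22.7 and 13.6 TPM in Null_LFD, a difference of 1.00 (SE 0.27, limma adjusted p = 0.699). The 3 high-fat null pads were all above the 3 low-fat ones. Irf5, a transcription factor downstream of MYD88, measured 16.3 and 28.5 TPM in WT_HFD and 8.04 and 7.19 TPM in WT_LFD, a difference of 1.39 (SE 0.57, limma adjusted p = 0.761). Irf5 was at 39.8 TPM in Null_HFD 3, its highest library, and WT_HFD 2 came next, so its 2 highest values came from the same libraries.

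Of the 31 other acute phase genes and their inducers listed, 25 were tested and 0 passed limma in any comparison. Fgg and Fgb, which encode chains of fibrinogen, showed the pattern of Cd14 and Lcn2. Fgb averaged only 1.81 TPM, near the filter of 1 TPM, which Fga, the gene of another chain, did not pass. Fgg measured 11.9, 8.43 and 3.36 TPM in Null_HFD, 28.1 and 32.3 TPM in WT_HFD, 10.9, 30.5 and 10.3 TPM in Null_LFD, and 4.50 and 4.84 TPM in WT_LFD. It was below wild type in every high-fat null pad and above it in every low-fat one. The high-fat difference was -1.94 for Fgg (SE 0.53) and -2.002 for Fgb (SE 0.50), and both had a limma adjusted p of 1. Trf, transferrin, the abundant iron carrier of plasma and milk, measured 1839, 1321 and 628 TPM in Null_HFD, 2254 and 2209 TPM in WT_HFD, 4739, 3255 and 1089 TPM in Null_LFD, and 2155 and 1669.5 TPM in WT_LFD. It was highest in Null_LFD 1 and 2, the libraries with the most Cd14, although Null_LFD 3 lay below both low-fat wild-type pads. Other genes of the list went the opposite way. Il1r1, the receptor of interleukin 1, measured 21.1, 19.2 and 21.4 TPM in Null_LFD and 32.3 and 32.2 TPM in WT_LFD. All 3 null values were below both wild-type values, as for 6.3% of all genes tested. The difference was -0.63 (SE 0.18, limma adjusted p = 0.949), and Il1r1 was named for the smallest p of the list there. That comparison drew attention to Cd14, so nothing is read from it.

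Promoters were printed for Lcn2 and Tlr2, which went with Cd14 over most libraries, and for Saa3, which did not. The promoter sequences, from RefSeq (GRCm38.p6), were matched for 4 of the 10 genes, Lcn2, Myd88, Saa3 and Tlr2, all on the minus strand. The 250 bases before each RefSeq start were searched on both strands for the kappaB consensus and for the C/EBP motif TTGCNNAA, which were found in 7.25% and 9.56% of 32851 promoters. C/EBP factors drive many acute phase genes. Capitals mark the matches, and a match is a description of the letters only. The mice were FVB, and the sequence is the reference strain's. The GENCODE M21 gene spans begin upstream of these RefSeq starts. The Lcn2 and Myd88 windows lie wholly within those spans, which end at 32388252 and 119341411, and the Tlr2 and Saa3 windows lie in them in part. Which start these pads used was not tested.
Lcn2, chr2:32387740-32387989: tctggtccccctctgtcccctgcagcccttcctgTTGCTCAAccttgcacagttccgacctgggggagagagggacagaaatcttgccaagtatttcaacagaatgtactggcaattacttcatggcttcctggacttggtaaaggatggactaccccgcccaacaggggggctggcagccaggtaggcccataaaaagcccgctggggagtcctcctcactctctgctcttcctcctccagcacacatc
Tlr2, chr3:83841609-83841858: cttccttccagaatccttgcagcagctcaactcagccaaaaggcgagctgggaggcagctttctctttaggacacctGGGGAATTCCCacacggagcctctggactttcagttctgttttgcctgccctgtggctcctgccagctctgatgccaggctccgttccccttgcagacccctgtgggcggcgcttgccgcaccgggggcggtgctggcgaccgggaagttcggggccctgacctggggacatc
Saa3, chr7:46715677-46715926: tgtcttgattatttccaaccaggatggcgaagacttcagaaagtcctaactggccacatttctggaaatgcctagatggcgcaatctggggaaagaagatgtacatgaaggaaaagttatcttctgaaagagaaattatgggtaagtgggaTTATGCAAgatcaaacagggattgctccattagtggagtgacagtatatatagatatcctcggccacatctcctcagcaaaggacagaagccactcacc
Lcn2 held a C/EBP match 216 to 209 bases before its start and Saa3 one on the opposite strand 99 to 92 bases before its start. Tlr2 held a pair of overlapping kappaB matches, 173 to 164 and 172 to 163 bases before its start. The Myd88 window held neither motif.

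Whether Cd14 went with epithelium or with macrophages was asked by setting its log2(TPM + 1) against the mean log2(TPM + 1) of marker lists, over the 8 libraries without WT_HFD 2 and Null_HFD 3 and then over all 10. The luminal epithelium list holds 22 genes (milk proteins, luminal transcription factors, keratins and junction proteins) and the macrophage list 23, and neither holds any of the 10 genes. The luminal level, as a difference from the mean of the 10 libraries, was 0.10, -0.37 and -1.78 in Null_HFD, 0.49 and 0.13 in WT_HFD, 0.92, 1.46 and 0.30 in Null_LFD, and 0.01 and -1.26 in WT_LFD. Like Cd14, it was higher in null than in wild-type pads on the low-fat diet without overlap, and lower on the high-fat diet without overlap. The high-fat gap was narrow, at 0.10 in Null_HFD 1 against 0.13 in WT_HFD 2. Neither part of the list did both. Its progenitor and milk genes overlapped on the high-fat diet, at 0.62 in Null_HFD 1 against 0.09 in WT_HFD 2. Its keratin and junction genes overlapped on the low-fat diet, at 0.04 in Null_LFD 1 against 0.32 in WT_LFD 1. The macrophage level was 0.02, -0.12 and 0.60 in Null_HFD, -0.21 and 0.26 in WT_HFD, -0.18, 0.24 and 0.04 in Null_LFD, and -0.33 and -0.32 in WT_LFD. It spanned less than the luminal level, and its 2 highest values were those of the libraries rich in lymph node genes.

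Every such correlation uses the low-fat libraries whose Cd14 level chose the set, and the low-fat values of luminal genes were known as well, so all are descriptions without a test. Over the 8 libraries Cd14 had a Pearson r of 0.90 with the luminal level and 0.64 with the macrophage level. The Spearman rho was 0.95 for luminal and 0.60 for macrophage. Without the 2 libraries farthest from the median level, r was 0.79 for luminal and 0.43 for macrophage. Over all 10 libraries r was 0.86 for luminal and 0.13 for macrophage, with a rho of 0.88 and 0.38. Null_HFD 3, with the highest macrophage level and the lowest luminal level, had 19.2 TPM of Cd14, among the 3 lowest. The difference between the luminal and macrophage correlations, 0.26 over 8 libraries and 0.73 over 10, was not tested. Leaving out 1 of the 8 libraries at a time gave 0.0438 to 0.487 for the whole luminal list. With that list cut to its keratin and junction genes, the difference was -0.116 over 8 libraries.

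**Figure D3:**
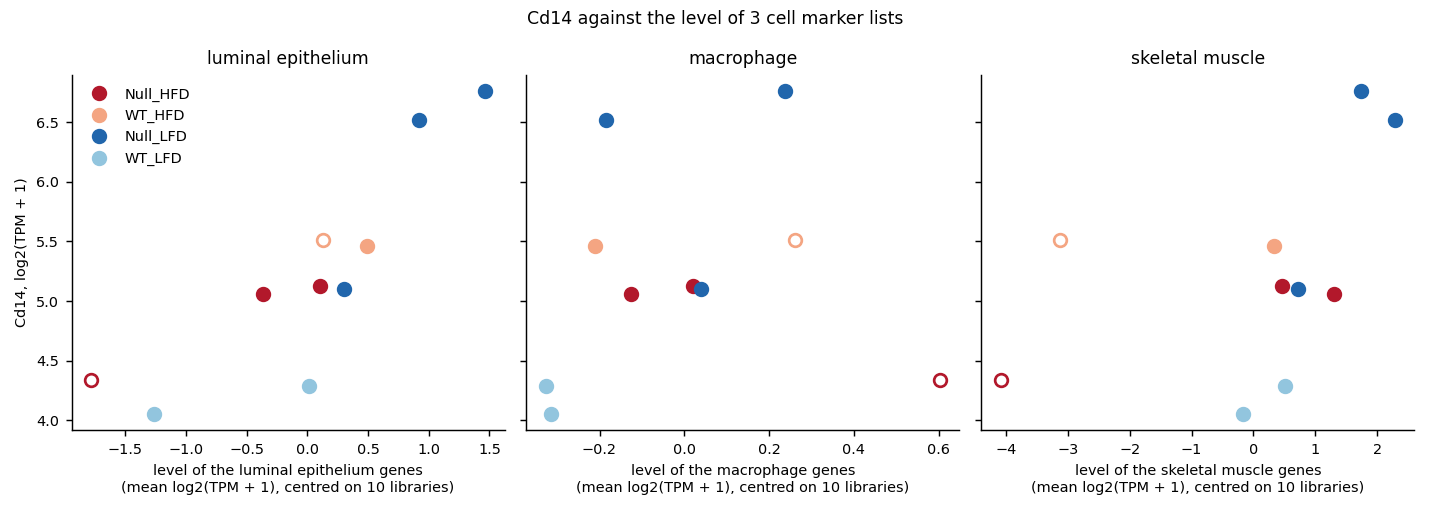
Cd14 in log2(TPM + 1) against the mean log2(TPM + 1) of the luminal epithelium, macrophage and skeletal muscle lists, centred on the 10 libraries, with 1 point per library. Open points are WT_HFD 2 and Null_HFD 3. Cd14 is higher where the luminal level is higher (r = 0.86 over all points), while Null_HFD 3 lies at the highest macrophage level with a low Cd14.

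The lists also went with each other, since the luminal and macrophage levels had r = 0.63 over the 8 libraries and -0.20 over 10. Given the macrophage level, the partial r of Cd14 with the luminal level was 0.83 over 8 libraries and 0.91 over 10. Given the luminal level, the partial r of Cd14 with the macrophage level was 0.20 over 8 libraries and 0.60 over 10. Subtracting the luminal level from Cd14 left an SD of 0.42 over 8 libraries, against 0.95 for Cd14 alone. Subtracting the macrophage level left 0.84 and the skeletal muscle level 0.52. The macrophage level spanned less than the luminal level, so its subtraction could remove little even at a high r. These SDs therefore do not rank the lists. Deviations from group means, which leave out the differences between groups, had r = 0.71 for luminal and 0.10 for macrophage over the 8 libraries. WT_HFD 1, alone in its group there, has no deviation by construction. The 2 libraries left in Null_HFD mirror each other, as do the 2 of WT_LFD. Such r values therefore rest on fewer free values than 8. Skeletal muscle genes went with Cd14 as well, at r = 0.84 over 8 libraries, 0.48 without the 2 libraries farthest from the median, and 0.47 over 10. The partial r of Cd14 with luminal given muscle was 0.79 over 8 libraries and 0.83 over 10, and with muscle given luminal it was 0.66 over 8 and -0.26 over 10. For deviations from group means muscle had r = 0.75, above the luminal 0.71. The part of muscle in the Cd14 values was not tested.

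Gene by gene, Cd14 was nearest to the luminal progenitor and milk genes. The 10 genes of that kind had a median r with Cd14 of 0.88 over 8 libraries and 0.85 over 10, with 9 of 10 above 0.7 in both, beside 7.30% of all genes above 0.7 over 8 libraries and 3.05% over 10. The keratin and junction genes of luminal cells had a median r of 0.51 and 0.59, with 1 of 9 above 0.7. Genes of basal epithelium had medians of 0.45 and 0.50, with 2 of 12 above 0.7 in both. Macrophage genes had a median of 0.53 over 8 libraries, with 4 of 23 above 0.7, and of 0.20 over 10, with 1 of 23 above 0.7. Skeletal muscle genes had medians of 0.80 and 0.47, with 10 of 11 above 0.7 over 8 libraries and 0 of 11 over 10. All genes tested had medians of 0.14 and 0.05. The neutrophil and monocyte list had a median of 0.02 over 8 libraries, and its Ly6g, Mpo and Mmp8 were below 1 TPM in all 10.

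Single markers showed the same division. Elf5, the transcription factor of milk-forming luminal cells, measured 58.5, 34.2 and 15.5 TPM in Null_HFD, 82.4 and 72.2 TPM in WT_HFD, 83.8, 119 and 54.1 TPM in Null_LFD, and 29.9 and 17.2 TPM in WT_LFD. Csn3, the milk protein kappa casein, measured 353, 137 and 124 TPM in Null_HFD, 497 and 391 TPM in WT_HFD, 1306, 1059 and 358 TPM in Null_LFD, and 223 and 63.1 TPM in WT_LFD. Both had null pads below wild type on the high-fat diet and above it on the low-fat diet, without overlap, and r with Cd14 was 0.91 for Elf5 and 0.91 for Csn3 over 8 libraries, and 0.90 and 0.92 over 10. Kit had r = 0.93 and 0.91. Krt8, a keratin of all luminal cells, measured 94.1, 109 and 35.5 TPM in Null_HFD, 103 and 109.6 TPM in WT_HFD, 117, 292 and 240.0 TPM in Null_LFD, and 129.8 and 61.7 TPM in WT_LFD. It was high in Null_LFD 3, where Cd14, Csn3 and Elf5 were lower than in the other low-fat null pads, and r with Cd14 was 0.57 and 0.62. Krt18, its partner keratin, had r = 0.60 and 0.64. Foxa1, a factor of hormone-sensing luminal cells, had r = -0.55 and -0.20.

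Among the defining macrophage genes, Emr1 (the older symbol of Adgre1, which encodes F4/80) measured 24.2, 26.1 and 18.3 TPM in Null_HFD, 19.7 and 14.9 TPM in WT_HFD, 22.0, 26.4 and 20.8 TPM in Null_LFD, and 19.0 and 17.4 TPM in WT_LFD. Cd14 varied 6.91-fold over the same libraries in which these values stayed between 14.9 and 26.4. Csf1r, the receptor on which macrophages depend, measured 78.8, 69.4 and 111 TPM in Null_HFD, 64.1 and 85.3 TPM in WT_HFD, 55.8, 79.3 and 61.1 TPM in Null_LFD, and 52.9 and 48.6 TPM in WT_LFD. Cd68, a lysosomal protein of macrophages, measured 35.6, 46.0 and 67.7 TPM in Null_HFD, 26.8 and 59.0 TPM in WT_HFD, 34.8, 37.6 and 33.4 TPM in Null_LFD, and 21.1 and 23.7 TPM in WT_LFD. C1qa, a complement subunit made by macrophages, lay between 107.5 and 197 TPM. Csf1r and Cd68 were both highest in Null_HFD 3, where Cd14 was low. The r with Cd14 over 8 and 10 libraries was 0.63 and 0.46 for Emr1, 0.53 and 0.11 for Csf1r, 0.57 and 0.16 for Cd68, and 0.33 and 0.20 for C1qa. Lyz2 was the macrophage gene nearest to Cd14 over 8 libraries (0.92), but had 0.08 over 10, and Ms4a7 had 0.87 and 0.70.

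**Figure D4:**
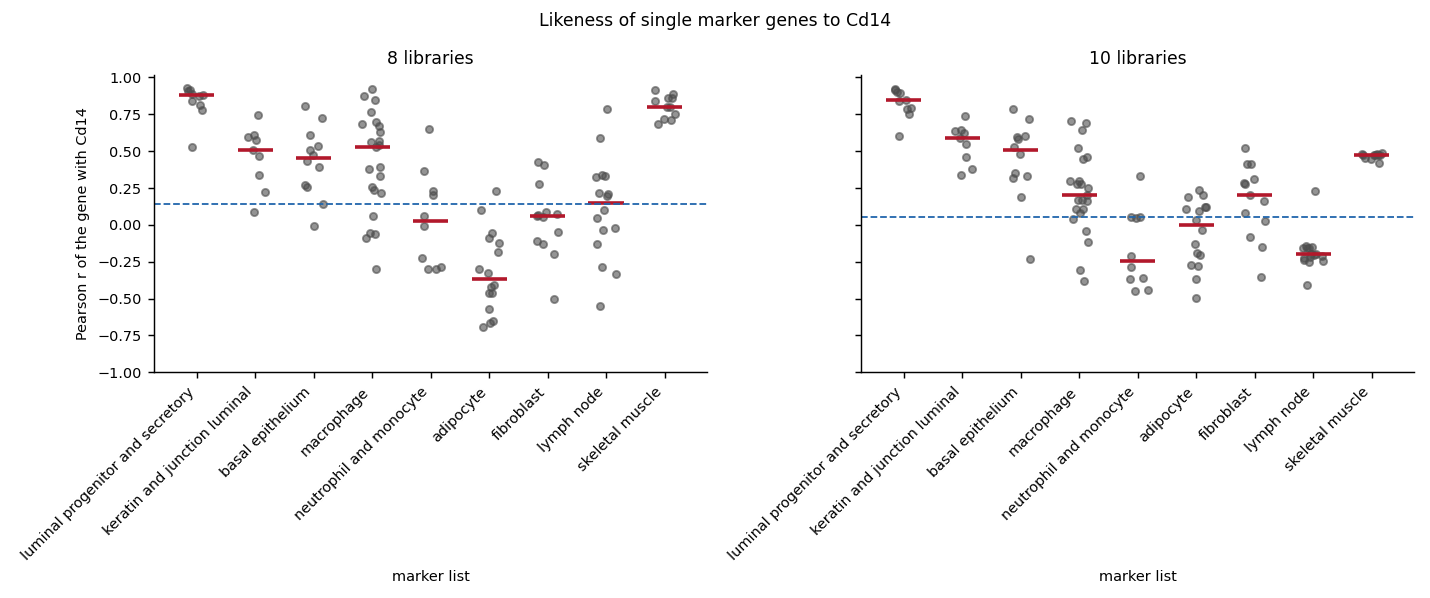
Pearson r with Cd14 of each gene of the marker lists, over 8 libraries (left) and 10 (right), with 1 point per gene and a red bar at the median of the list. The dashed line is the median of all genes tested. Luminal progenitor and secretory genes have medians of 0.88 and 0.85, and macrophage genes 0.53 and 0.20.

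The other genes of the set divided between the lists. Lcn2 went with the luminal level (r = 0.91 over 8 libraries) and less with macrophages (0.40), and over 10 libraries the values were 0.87 and -0.01. Tlr2 had r = 0.97 with the luminal level over 8 libraries, above its 0.68 with macrophages. Over 10 libraries that value was 0.18, and Tlr2 instead had 0.83 with macrophages and -0.86 with adipocytes, so the luminal value of Tlr2 rests on leaving out WT_HFD 2 and Null_HFD 3. Ly96 had r = 0.87 with luminal and 0.78 with macrophage genes over 8 libraries, and 0.58 and 0.43 over 10.

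Myd88 and Lbp lay on the macrophage side in these values. Myd88 had r = 0.89 with the macrophage level over 8 libraries and 0.91 over 10, against 0.55 and -0.08 with the luminal level. Lbp had 0.79 and 0.68 with macrophages, against 0.57 and 0.25 with luminal genes. Tlr4, Saa3 and Orm1 had values between -0.11 and 0.05 with luminal and between -0.18 and -0.04 with macrophage genes over 8 libraries. Hp had -0.68 with luminal genes and 0.71 with adipocyte genes over 8 libraries. Orm1 had -0.82 with lymph node genes over 10 libraries and -0.65 over 8.

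**Figure D5:**
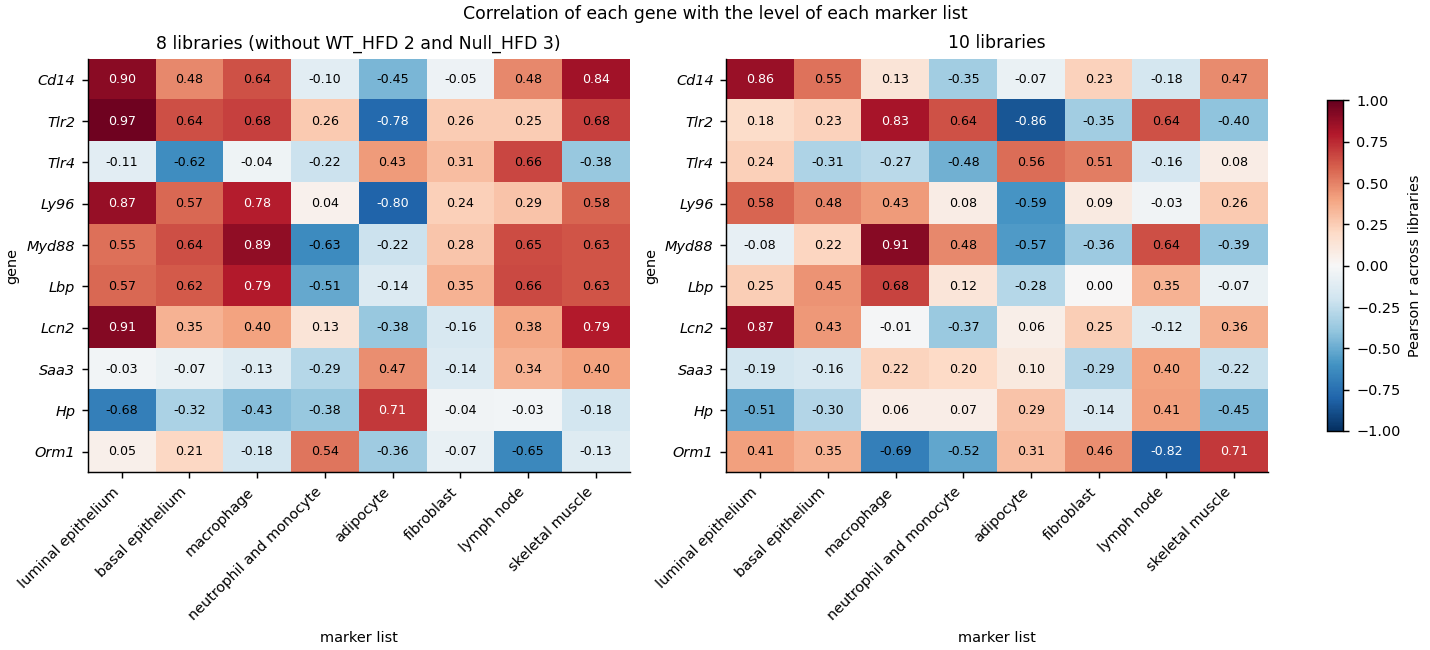
Pearson r of each of the 10 genes with the level of each marker list, over 8 libraries (left) and all 10 (right), coloured from blue (-1) to red (1). Cd14 and Lcn2 keep high values with luminal epithelium in both (0.90 and 0.86 for Cd14), Myd88 with macrophages (0.89 and 0.91), and Tlr2 has 0.97 with luminal epithelium on the left and 0.18 on the right.

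The genes most like Cd14 were ranked among 11192 with a mean of at least 5 TPM, by Pearson r over the 8 libraries. The first 10 were Abhd17c (0.985), Nfe2l3 (0.981), Rac3 (0.975), Fbxo32 (0.973), Plekhb1 (0.967), Chka (0.957), Inadl (0.955), Tcap (0.950), Sytl1 (0.944) and Slc6a8 (0.943). Over all 10 libraries they were Abhd17c (0.970), Fbxo32 (0.957), Folr1 (0.942), Chka (0.937), Rac3 (0.933), Coro2a (0.924), Csn3 (0.919), Aldoc (0.914), Kit (0.912) and Dkk3 (0.909). Both rankings held 4 genes, Abhd17c, Rac3, Fbxo32 and Chka. Tcap, which encodes a protein of the muscle sarcomere, had rank 383 over 10 libraries, while Csn3 and Kit, 2 of the luminal markers, entered the first 10. Lcn2 ranked 25 over 8 libraries and 14 over 10.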

How the data were processed

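The authors' deposited values were read as log2(TPM + 1) per gene symbol. No label states this unit: it was inferred from the values, whose minimum was 0 and whose TPM summed to between 946103 and 954463. The submitters' processing notes list kallisto, limma and GRCm38 without versions or roles. Of 30320 lines, 1 had no symbol (0.00544% to 0.0108% of TPM) and was left out. At most 2.34% of values were identical between any pair of libraries. TPM keeps no depth, so counting error cannot be given.

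Groups came from the labels' genotype and diet. A filter of 1 TPM in 2 or more libraries kept 16932 genes for limma (3.58.1, R 4.3.3), with 1 mean per group, a mean-variance trend and 6 residual degrees of freedom. The two-sided p-values were adjusted over all of these genes by Benjamini-Hochberg, with 0.05 as the threshold for a call. Differences on this scale understate changes of low genes. The scripts were tested on simulated data. Correlations across libraries (scipy 1.17.1) are descriptions: permutation tests were run, but are not reported, because all use the low-fat libraries on which the set was chosen.

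The members and lists were chosen with earlier results of these data known. Adgre1 and Tf were matched to the symbols Emr1 and Trf. Named genes were all members, defining markers, up to 4 genes per list by smallest p, and the 10 genes most like Cd14 without predicted genes, of which the text gives a part. Saa1, Kit, Foxa1, Lyz2, Ms4a7 and Trf were named after their values were seen. Coordinates are those of GENCODE M21. Alternatives were a pseudocount of 0.1, no filter, a filter of 5 TPM, median-of-ratios scaling, library weights, a replicate block and leaving out libraries. The comparison with skeletal muscle and the pathway list without 2 libraries were added after seeing the data.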

Additional observations from a re-analysis of the deposited data

Results flagged for a closer look

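Among 26 genes and 8 lists looked at, 6 genes and 1 list had every null library on one side of every wild-type library on one diet and on the opposite side on the other diet. Of all 16932 genes tested, 299 (1.77%) did so, but the 26 include Cd14, luminal markers and others picked with such values known, so nothing is read from the count. The change in the genotype difference (high-fat minus low-fat) was -2.60 for Cd14, -3.67 for Lcn2, -4.00 for Csn3, -3.06 for Elf5, -3.15 for Fgb and -3.45 for Fgg. The luminal epithelium level changed by -2.51 in the same way. Neither its progenitor and milk genes nor its keratin and junction genes, taken alone, separated the genotypes without overlap on both diets. Csn3 (-4.00) and the luminal epithelium level (-2.51) also had the diet difference on opposite sides in null and wild-type pads, as 235 genes (1.39%) did. These differences were not tested here, since all use the low-fat libraries that drew attention to Cd14. The corresponding changes of the macrophage and skeletal muscle levels were -0.21 and -0.78.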

How the results depend on the processing

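Within the high-fat diet, the one comparison in which the 10 genes were tested, none passed under any alternative they entered, and Saa3 did not enter the filter of 5 TPM. Of 845 alternative values of the genes over 5 comparisons, 33 had the opposite sign, 8 of them among the 345 that did not rest on leaving out 1 library. The causes were not tested.

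The opposite signs were, for Tlr4 in the interaction (-0.055), 0.0975 with median-of-ratios scaling, 0.155 without both lymph node-rich libraries and 0.0014 with library weights. Without both lymph node-rich libraries they were also -0.0333 for Ly96 within the high-fat diet, 0.068 for Lbp in the interaction and 0.047 for Saa3 within the high-fat diet. Ly96 between diets in wild type was -0.14 with median-of-ratios scaling. Leaving out 1 library at a time gave ranges that cross 0 within the high-fat diet for Tlr2 (-0.468 to 0.114), Ly96 (-0.00485 to 0.164), Saa3 (-0.746 to 0.718), Hp (-0.556 to 1.07) and Orm1 (-0.206 to 0.664). Such ranges crossed 0 in the interaction for Tlr4 (-0.335 to 0.167), Myd88 (-0.552 to 0.0522), Lbp (-0.758 to 0.0308), Saa3 (-1.18 to 0.279) and Orm1 (-0.134 to 1.25). They did so between diets for Tlr2 and Tlr4 in null (-0.564 to 0.0188 and -0.0847 to 0.418) and Ly96 and Hp in wild type (-0.027 to 0.138 and -0.828 to 0.798). Orm1 within the low-fat diet was -1.02 to 0.363, above 0 without WT_LFD 1. Saa3 within the low-fat diet was 1.15 with a pseudocount of 0.1, and Hp -1.01 with median-of-ratios scaling.

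Counts of genes called moved by small numbers. Leaving out a wild-type library, or both lymph node-rich libraries, left 1 library in a wild-type group, so nothing is read from those counts. Genotype within the low-fat diet (0) gave 5 with a pseudocount of 0.1, 2 with no filter, 2 with library weights and 0 to 1 without 1 library. Genotype within the high-fat diet (2) gave 1, 18 with no filter, 0 without both lymph node-rich libraries and 0 to 3 without 1 library. Genotype averaged over diets (0, with 709 at an unadjusted p under 0.05) gave 3, 15, 2 with library weights and 0 to 2. Diet within wild type (0) gave 5 with no filter and 0 to 2. Diet within null (1) gave 0 with a pseudocount of 0.1, 0 with no filter, 2 without both lymph node-rich libraries, 2 with library weights and 0 to 2. Diet averaged (0, with 1641 at an unadjusted p under 0.05) gave 3 with no filter and 0 to 2, as did the interaction (0, with 701 at an unadjusted p under 0.05).

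Same-numbered libraries of different groups had correlations of deviations between -0.346 and 0.412 (13 pairs), so the numbers were not taken to pair the samples. The replicate block gave 3 genes for diet within null and 0.0744 for Saa3 within the high-fat diet, and changed no other call.

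Leaving out 1 of the 8 libraries gave r of 0.837 to 0.953 for Cd14 with luminal genes, 0.35 to 0.853 with macrophage genes and 0.779 to 0.899 with skeletal muscle genes. The luminal value was highest without WT_LFD 1 and was 0.86 over all 10 libraries, 0.787 without the 2 libraries farthest from the median and 0.711 for deviations from group means, against 0.479 and 0.752 for skeletal muscle and 0.104 for macrophage deviations. The luminal minus macrophage difference in r (0.262) was 0.0438 to 0.487 without 1 library, 0.733 over all 10 and 0.607 for deviations. All values for deviations rest on fewer free values than 8, since WT_HFD 1 was alone in its group. With keratin and junction genes alone it was -0.116 over the 8 libraries, where its direction depended on the milk and progenitor genes. Over all 10, the median r with Cd14 was 0.588 for keratin and junction genes and 0.205 for macrophage genes. The median r with Cd14 was 0.466 to 0.75 for luminal and 0.31 to 0.655 for macrophage genes without 1 library, 0.372 for deviations and 0.88 for progenitor and secretory genes (luminal), and 0.205 over all 10 (macrophage).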
